A study of Mus musculus with 2 samples.

Results

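The 38 genes described here carry fatty acids into the mitochondrial matrix, oxidise them there and in peroxisomes, govern these steps, or take up ketone bodies as fuel. They were chosen by symbol, as a pathway, from the 32589 genes in the count files, and every one of them was found. Their transcripts were counted as unique molecular identifiers (UMIs, 1 per captured RNA molecule) in single cells of mouse left ventricle. Both groups of mice had undergone transverse aortic constriction (TAC), in which a suture narrows the aorta and raises the pressure the ventricle works against, and the hypertrophied ventricles were taken 6 weeks later. The groups carry the labels wild-type and p53 knockout. Each was sequenced as 1 library made from 3 mixed hearts, so the spread between animals cannot be measured and no test between the groups is possible. Strain, age, sex and the kind of p53 deletion are not given in the labels, and no group without TAC was analysed here.

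The adult heart draws most of its energy from long-chain fatty acids. They are joined to coenzyme A, passed over the inner mitochondrial membrane as carnitine esters and shortened in repeated rounds of dehydrogenation, hydration, dehydrogenation and thiolysis. PPAR nuclear receptors with the coactivator PGC-1alpha are the textbook activators of these genes, and pressure-loaded or failing hearts are known for lower fatty acid oxidation and greater use of ketone bodies.

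The libraries held 14763 and 9298 kept cells, with a median of 937 and 1567 UMIs per cell. Cardiomyocyte-like cells, named from heart muscle markers, made up 33.0% and 9.45% of them, although the labels give cardiomyocytes as the cell type. In the order labelled wild-type then labelled p53 knockout, 4058 and 623 of these cells had under 10% mitochondrial UMIs (mt-poor cells), and 809 and 256 had at least 10% (mt-rich cells). Different clusters held most mt-poor cells in the libraries: clusters 1 and 7 held 2481 and 1421 of the first library's, and cluster 15 held 395 of the second's. Cluster 9 held 780 and 255 of the mt-rich cells. Trp53, the gene of p53, was at 39.0 and 54.7 CPM (UMIs per 1000000 nuclear-encoded UMIs) over all kept cells and at 30.4 and 23.7 CPM in mt-poor cells. Because it was not lower over all kept cells, the groups are called here the wild-type-labelled and the knockout-labelled library. Xist, expressed from the inactive X chromosome, was at 2.37 and 929 CPM and the Y-linked gene Ddx3y at 160 and 0.918 CPM, so sex and genotype cannot be told apart here. In mt-poor cells the load-responsive natriuretic peptide gene Nppa was at 16.01 and 1630.4 CPM, and atrial genes were found in 0.542% and 6.74% of cells. In the second library, 1912 of these 2893 Nppa UMIs came from 75 cells of cluster 9. Nppa was at 19.2 and 383 CPM in mt-poor cells of cluster 1 and at 8.35 and 93.6 CPM in those of cluster 7. The libraries share 105 cell barcodes, 92 of them among kept cells.

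Values below are CPM of nuclear-encoded UMIs, given first for the wild-type-labelled and then for the knockout-labelled library, also called the first and the second. Log2 ratios are of the second over the first, with 0.5 UMI added, and are followed by exact 95% intervals that cover counting error only. A gene counts as measured with at least 20 UMIs over both libraries and as past the threshold at a 2-fold difference.

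In mt-poor cardiomyocyte-like cells, most genes of fatty acid oxidation were lower in the knockout-labelled library, whereas both genes of ketone use were higher. Of the 38 genes, 30 were lower and 8 higher, where 70.6% of 13189 measured genes were lower and 29.4% higher. At least 2-fold lower were 12 of them, beside 18.3% of all measured genes, and at least 2-fold higher were 2, beside 3.65%. The interval of the ratio lay below 0 for 26 genes and above 0 for 5, a count that was not made for all genes. The median log2 ratio of the 38 genes was -0.77, and that of all measured genes was -0.32. Summed, the 38 genes made up 0.836% of nuclear-encoded UMIs (interval 0.828% to 0.844%) and 0.683% (0.671% to 0.695%). The median UMI count of these cells was 973 and 1507, Malat1, a nuclear RNA, took 7.10% and 8.67% of their UMIs, and the part of such differences in the ratios was not tested. Without the split at 10% mitochondrial UMIs, 26 of the 38 genes were lower and 12 higher beside 66.3% and 33.7% of all genes, 7 and 3 of them at least 2-fold beside 15.4% and 4.25%.

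**Figure D1:**
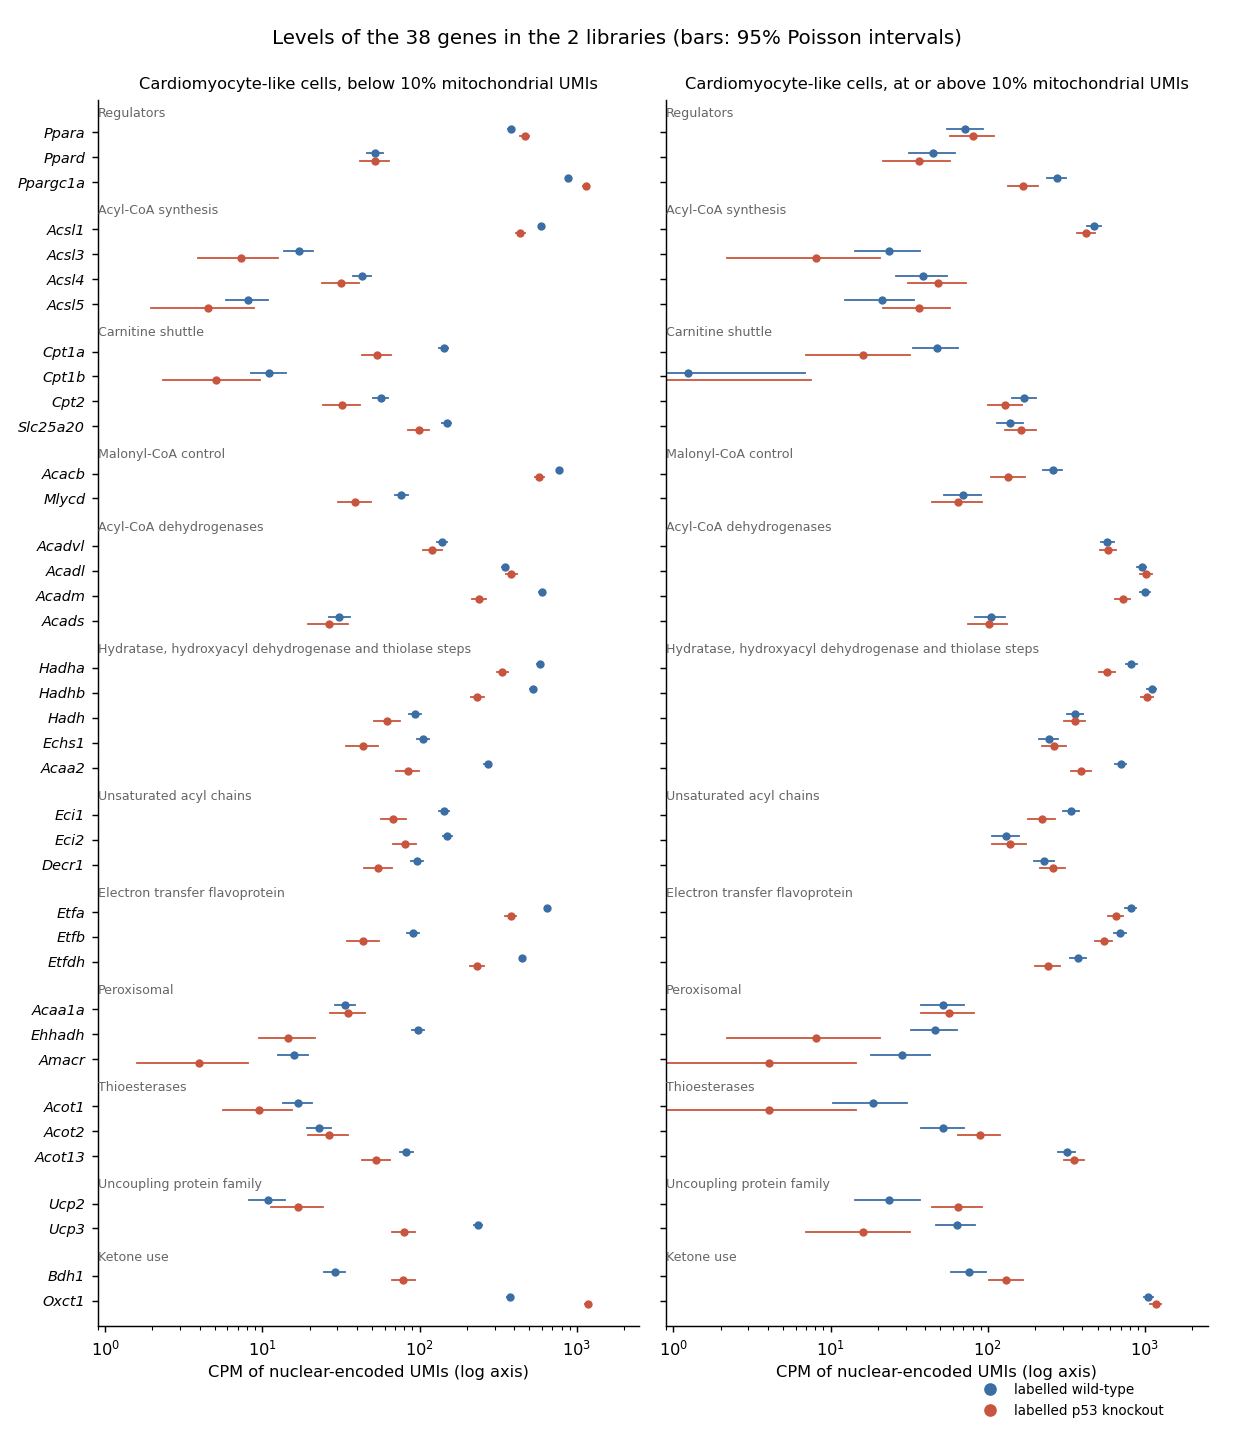
Level of each of the 38 genes in cardiomyocyte-like cells, as CPM on a log axis, in the wild-type-labelled (blue) and knockout-labelled (red) library, with 95% Poisson bars. In mt-poor cells (left) Oxct1 and Bdh1 were higher in the second library while Ehhadh, Acaa2 and Ucp3 were lower; in mt-rich cells (right) most pairs of bars overlap, and Cpt1b was at 0 UMIs in the second library, so only its bar is drawn.

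The regulators did not follow the enzymes. Ppargc1a, which encodes PGC-1alpha, was at 874 and 1139 CPM (log2 ratio 0.38, 0.31 to 0.46). Ppara, the fatty acid receptor that drives oxidation genes in heart, was at 379 and 467 CPM (0.30, 0.18 to 0.42). Ppard, a second PPAR expressed in muscle, was at 52.2 and 51.8 CPM (-0.01, -0.37 to 0.33). None of the 3 passed a 2-fold difference, and the intervals of the first 2 lie above 0. Of 17 other regulators, listed with earlier results of these data known, 10 were lower and 7 higher, beside 70.6% and 29.4% of all genes, with a median log2 ratio of -0.03 and none past 2-fold. Among them the nuclear receptor gene Esrrg was at 934 and 1094 CPM, Pparg, best known from adipocytes, had the highest ratio at 0.45, and Sirt1, a deacetylase that acts on PGC-1alpha, had the lowest among those with at least 100 UMIs, at 78.2 and 51.3 CPM (-0.60).

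The 4 genes of entry into the mitochondrion were all lower in mt-poor cells. Cpt1a, the form of the outer-membrane carnitine palmitoyltransferase best known from liver, was at 142 CPM and 53.5 CPM (log2 ratio -1.40, -1.73 to -1.10). Cpt1b, the muscle form, was at 11.04 and 5.07 CPM on only 60 and 9 UMIs (-1.06, -2.32 to -0.10). Its exons overlap those of Gm44502 on the same strand, and how reads in both were counted is not given in the sources used here; Gm44502 itself had 36 and 6 UMIs. Slc25a20, the carrier that exchanges acylcarnitine for carnitine, was at 149 and 98.6 CPM, and Cpt2, which releases the acyl chain in the matrix, was at 56.5 and 32.1 CPM. Both stayed within 2-fold, at -0.59 and -0.80.

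Of the acyl-CoA synthetases and the genes of malonyl-CoA control, 1 of 6 was past 2-fold. Acsl1, the main long-chain acyl-CoA synthetase of heart, was at 594 and 438 CPM (log2 ratio -0.44, -0.55 to -0.33). Of its relatives, Acsl4, which prefers arachidonate, was at 42.9 and 31.6 CPM and Acsl3 was at 17.1 and 7.33 CPM (-1.18, -2.19 to -0.38), the latter with exons that overlap Utp14b on the same strand. Acsl5 was the fourth, at 8.09 and 4.51 CPM, with an interval that spans 0. Acacb, which makes the malonyl-CoA that inhibits Cpt1 enzymes, was at 768 and 578 CPM, and Mlycd, which removes malonyl-CoA, was at 76.5 and 38.9 CPM. The maker and the remover of the inhibitor were thus both lower, at log2 ratios of -0.41 and -0.97.

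Among the acyl-CoA dehydrogenases, which take the first step of each round for chains of different length, 1 of 4 was past 2-fold. Acadm, for medium chains, was at 597 and 239 CPM (log2 ratio -1.32, -1.47 to -1.17). Acadl, for long chains, was at 349 and 384 CPM (0.14, 0.01 to 0.26), Acadvl, for very long chains, at 139 and 121 CPM, and Acads, for short chains, at 30.9 and 26.5 CPM. The intervals of Acadm and of these 3 do not overlap.

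Genes of the later steps were all lower. Hadha and Hadhb encode the subunits of the mitochondrial trifunctional protein, which carries out the last 3 reactions for long chains. Hadha was at 582 and 335 CPM (log2 ratio -0.80, -0.92 to -0.67) and Hadhb at 526 and 233 CPM (-1.17, -1.33 to -1.03). For shorter chains, Echs1, the hydratase, was at 105 and 43.4 CPM (-1.27, -1.64 to -0.93), Hadh, the hydroxyacyl dehydrogenase, at 93.8 and 62.0 CPM (-0.59, -0.91 to -0.30), and Acaa2, the matrix thiolase, at 271 and 84.0 CPM (-1.68, -1.94 to -1.44). Of these 5 genes 3 passed 2-fold, and no interval reached 0. The genes that prepare unsaturated chains were lower as well: Eci1 at 143 and 68.2 CPM (-1.06), Eci2 at 150.1 and 80.6 CPM (-0.89), both enoyl-CoA isomerases, and Decr1, a dienoyl-CoA reductase, at 96.6 and 54.7 CPM (-0.82).

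Electrons from the dehydrogenases pass to the electron transfer flavoprotein, whose 3 genes were also lower. Etfa, its alpha subunit, was at 648 and 379 CPM (-0.77), Etfb, its beta subunit, at 90.7 and 44.0 CPM (-1.04, -1.41 to -0.70), and Etfdh, which hands the electrons to ubiquinone, at 451 and 232 CPM (-0.96).

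The peroxisomal genes split. Ehhadh (chromosome 16, 21761287 to 21787807, minus strand), the bifunctional hydratase and dehydrogenase known as a PPARalpha target, was at 97.9 and 14.7 CPM, on 532 and 26 UMIs. Its log2 ratio of -2.71 (-3.37 to -2.17) was the lowest of the 38 genes. Amacr, the racemase for branched chains, was at 15.8 and 3.94 CPM (-1.91, -3.36 to -0.90), on 86 and 7 UMIs. Acaa1a, the peroxisomal thiolase, was at 33.5 and 34.9 CPM (0.07, -0.38 to 0.48).

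The thioesterases, which release free fatty acids from coenzyme A, showed no 2-fold difference. Acot13 was at 82.2 and 52.97 CPM (log2 ratio -0.63). Acot1 was at 16.7 and 9.58 CPM and Acot2 at 23.0 and 26.5 CPM, with opposite signs of -0.77 and 0.21; they are close paralogs whose reads could have been split in counting. In the uncoupling protein family, Ucp3, the form of muscle and a PPAR-responsive gene, was at 236 and 79.5 CPM (-1.57, -1.83 to -1.32). Thinned to 500 UMIs per cell, 9.49% and 3.53% of mt-poor cells had a Ucp3 UMI, compared with 1.205% and 0% of 83 and 237 B-like cells, with median depths of 873 and 1115 UMIs. A count of 0 in 237 cells, taken as at most 3 counts, allows a share of cells with a UMI of up to 1.27%; the exact 95% upper bound is 1.54%. Ucp2, which is better known from immune cells, was at 10.9 and 16.9 CPM (0.65, -0.05 to 1.30).

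The genes of ketone use ran the other way. Oxct1 (chromosome 15, 4026383 to 4155344, plus strand) encodes the enzyme that activates acetoacetate, the step that commits ketone bodies to oxidation. It was at 373 CPM (357 to 390) and 1179.5 CPM (1130 to 1231), a log2 ratio of 1.66 (1.57 to 1.75) on 2030 and 2093 UMIs. Thinned to 500 UMIs, 14.4% and 32.9% of mt-poor cells had an Oxct1 UMI, while in B-like cells the shares were 7.23% and 6.33%. Bdh1 (chromosome 16, 31422280 to 31458901, plus strand), which converts hydroxybutyrate to acetoacetate, was at 28.9 and 78.9 CPM (1.45, 1.11 to 1.79) on 157 and 140 UMIs. Both genes were past 2-fold, in the opposite direction to every other gene of the 38 past it.

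**Figure D2:**
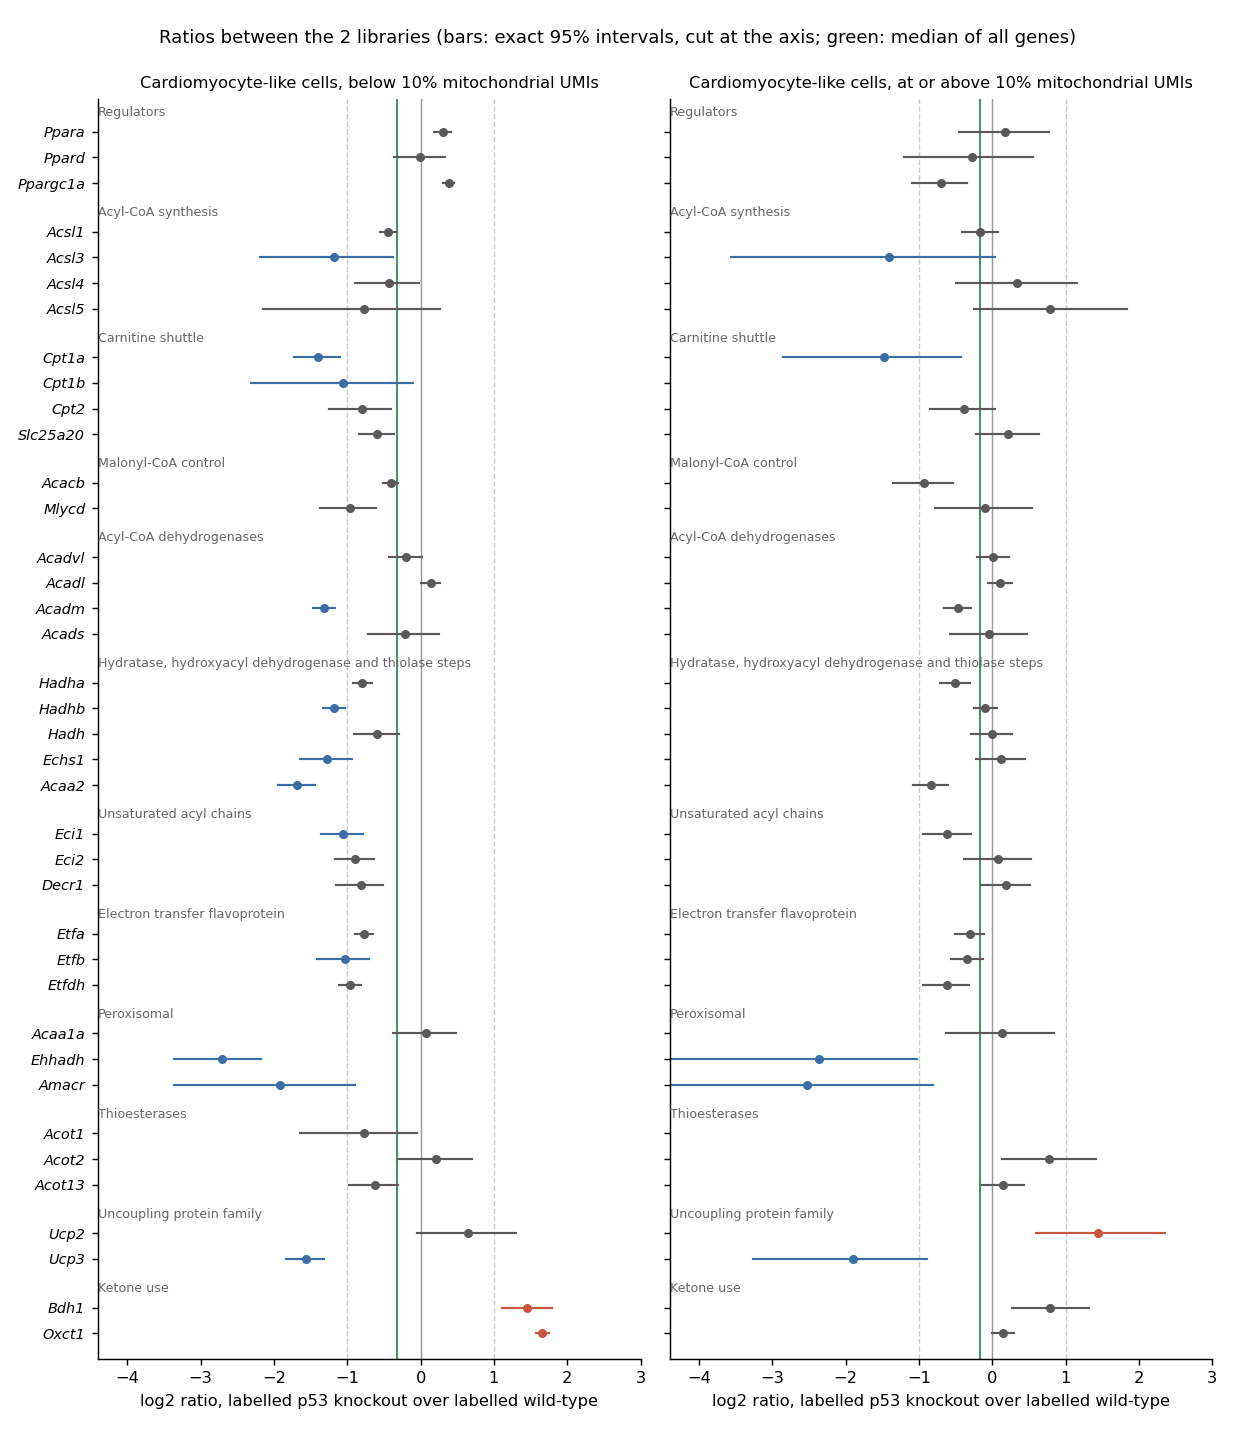
Log2 ratio, knockout-labelled over wild-type-labelled library, for each measured gene, with exact 95% bars, in mt-poor (left) and mt-rich (right) cardiomyocyte-like cells. Dashed lines mark 2-fold, coloured points are past it, and the green line is the median of all measured genes at -0.32 and -0.16; Ehhadh, Amacr, Ucp3, Cpt1a and Acsl3 are past 2-fold on the low side in both panels.

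Other genes of ketone metabolism, from a list of 7 of which 6 were measured, gave 4 lower and 2 higher, a share near the 70.6% of all genes that were lower. Slc16a1, the monocarboxylate transporter that takes up lactate and ketone bodies, was at 98.8 and 255 CPM (1.37, 1.19 to 1.55). Acat1, the thiolase that splits acetoacetyl-CoA, was at 365 and 249.1 CPM. Thus the uptake transporter and the 2 genes of ketone use were higher, and the thiolase was lower.

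Of 28 measured of 29 further oxidation and carnitine genes, 25 were lower and 10 were lower by at least 2-fold, beside 70.6% and 18.3% of all measured genes; their median was -0.77. Crot, the peroxisomal carnitine octanoyltransferase, was at 52.1 and 8.45 CPM (-2.58, -3.48 to -1.88). Acss1, a mitochondrial acetyl-CoA synthetase and the gene of the list with the most UMIs, was at 371 and 611 CPM (0.72, 0.61 to 0.83). Of 11 known PPAR targets outside oxidation, 6 were lower and 5 higher, beside 70.6% and 29.4% of all genes, with a median of -0.05. Angptl4, an inhibitor of lipoprotein lipase, was at 25.02 and 3.94 CPM (-2.57), while Lpl, the lipase itself, was at 2186 and 2534 CPM and G0s2, an inhibitor of triglyceride breakdown, at 30.9 and 37.2 CPM. Of 19 TCA cycle genes 16 were lower, beside the same 70.6%, none of them 2-fold, with a median of -0.41; Ogdh, a subunit of oxoglutarate dehydrogenase, was at 554 and 830.1 CPM (0.58) and Fh1, fumarase, at 54.5 and 28.2 CPM (-0.94). The median of the 38 genes was therefore below that of the TCA cycle and close to that of the other oxidation genes.

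Upstream sequences are printed for 2 genes past 2-fold on the low side, chosen for an upstream AGGTCA hexamer, to which nuclear receptors bind. Sequences are also printed for the promoter shared by Hadha and Hadhb, and for Oxct1 as the gene furthest in the other direction. Each is the 250 bases before the gene's start in RefSeq, on build GRCm38.p6, 5′ to 3′ on the gene's strand, with AGGTCA or its reverse complement TGACCT in capitals.
Ucp3, chr7:100472741-100472990, plus strand: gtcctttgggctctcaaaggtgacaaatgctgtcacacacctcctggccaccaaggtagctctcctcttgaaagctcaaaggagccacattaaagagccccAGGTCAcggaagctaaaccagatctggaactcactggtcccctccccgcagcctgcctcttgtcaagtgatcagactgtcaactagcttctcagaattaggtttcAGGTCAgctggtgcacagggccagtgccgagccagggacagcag
Acadm, chr3:153944644-153944893, minus strand: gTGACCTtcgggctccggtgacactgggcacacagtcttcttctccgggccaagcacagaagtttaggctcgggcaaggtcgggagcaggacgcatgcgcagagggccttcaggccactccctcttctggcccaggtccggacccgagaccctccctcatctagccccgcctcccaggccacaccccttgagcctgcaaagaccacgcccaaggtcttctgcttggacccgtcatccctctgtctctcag
Hadhb, chr5:30155003-30155252, plus strand: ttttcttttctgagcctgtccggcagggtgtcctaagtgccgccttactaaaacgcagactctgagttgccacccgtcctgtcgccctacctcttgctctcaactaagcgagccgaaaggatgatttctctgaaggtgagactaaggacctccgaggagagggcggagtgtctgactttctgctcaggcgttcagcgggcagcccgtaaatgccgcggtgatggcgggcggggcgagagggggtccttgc
Oxct1, chr15:4026178-4026427, plus strand: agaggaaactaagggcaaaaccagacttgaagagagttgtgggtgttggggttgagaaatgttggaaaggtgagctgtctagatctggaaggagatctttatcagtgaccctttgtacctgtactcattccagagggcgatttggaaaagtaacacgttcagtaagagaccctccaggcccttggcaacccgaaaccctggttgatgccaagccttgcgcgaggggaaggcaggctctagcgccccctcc
Of the 38 genes, 33 had a RefSeq promoter entry; Cpt1b, Decr1, Acaa2, Acot13 and Amacr had none. AGGTCA stood on either strand of the 250 bases in 5 of these 33, and in 14.0% of 32851 promoters of all genes. The share of the members was thus near that of all genes. The 5 were Acadm, Acadvl, Cpt1a, Echs1 and Ucp3, of which 4 were past 2-fold and Acadvl was not. Ehhadh, Hadhb, Eci1, Etfb and Acsl3, also past 2-fold on the low side, lacked the hexamer there. The direct repeat of AGGTCA with 1 base between its copies, on either strand, was in 0 of the 33 and in 0.0335% of all promoters; TCAAGGTCA, which contains AGGTCA, was in 0 and in 0.387%. Hadha and Hadhb start 273 bases apart in RefSeq and point away from each other, so 228 of the 250 bases printed for Hadhb also lie upstream of Hadha.

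Mt-rich cells showed a narrower difference. Of the 36 genes measured there, 21 were lower and 15 higher, beside 59.5% and 40.5% of all genes, with a median log2 ratio of -0.09 beside -0.16 for all 8627 measured genes. At least 2-fold lower were 5, beside 13.2% of all genes, and at least 2-fold higher was 1, beside 5.51%. Cpt1b and Acot1 were under 20 UMIs. The 5 were Ehhadh at 46.0 and 8.09 CPM (-2.36, -4.46 to -1.03), Amacr at 28.6 and 4.04 CPM (-2.53), Ucp3 at 63.4 and 16.2 CPM (-1.90, -3.26 to -0.88), Cpt1a at 47.2 and 16.2 CPM (-1.48, -2.86 to -0.42) and Acsl3 at 23.6 and 8.09 CPM (-1.41, -3.56 to 0.04). Each of them rests on 8 or fewer UMIs in the second library. The one on the high side was Ucp2, at 23.6 and 64.7 CPM (1.44, 0.59 to 2.36). The interval of the ratio lay below 0 for 14 genes and above 0 for 3, also not counted for all genes. At a clustering resolution of 2, a cluster of 207 and 263 cells with a median of 26.7% mitochondrial UMIs was named atrial cardiomyocyte-like. Whether the mt-rich cells of the libraries are of like kind was not tested.

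The enzymes of the main mitochondrial spiral lay closer together in mt-rich cells. Acaa2 was at 702 and 392 CPM (log2 ratio -0.84, -1.08 to -0.60), Acadm at 1002 and 722 CPM (-0.47, -0.66 to -0.29) and Hadha at 819 and 576 CPM (-0.51, -0.71 to -0.30). Hadhb was at 1102 and 1033 CPM (-0.09, -0.25 to 0.07) and Echs1 at 245 and 265 CPM (0.12, -0.22 to 0.44). Oxct1 was at 1052 CPM (983 to 1126) and 1167 CPM (1073 to 1266), a log2 ratio of 0.15 (-0.01 to 0.30), and Bdh1 at 75.8 and 131 CPM (0.79, 0.27 to 1.32). Slc16a1 remained higher, at 134 and 301 CPM. For Acadm, Hadhb, Acaa2, Echs1 and Oxct1 the intervals of the ratio in mt-poor and mt-rich cells do not overlap, a comparison that covers counting error only.

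Within each library the split by mitochondrial UMIs went with higher levels of some roles and lower levels of others. In the wild-type-labelled library, mt-rich over mt-poor, 24 of the 38 genes were higher and 14 lower, beside 49% and 51% of all measured genes; 17 were at least 2-fold higher, beside 18.8% of all measured genes, and 7 at least 2-fold lower, beside 16.4%. In the knockout-labelled library 34 were measured, 25 of them higher and 9 lower beside 51.2% and 48.8%; 16 were at least 2-fold higher, beside 26.5%, and 5 lower, beside 22.7%. All 4 acyl-CoA dehydrogenases and all 5 hydratase, hydroxyacyl dehydrogenase and thiolase genes were higher in mt-rich cells of both libraries, except that Hadha in the second, at a log2 ratio of 0.78, changes sign with median-of-ratios scaling. That scaling lowers every ratio of this contrast by 0.38 in the first library and 1.14 in the second; the medians of the measured members, 0.70 and 0.78, become 0.32 and -0.36, and those of all genes become -0.41 and -1.10. Etfb was at 90.7 CPM in mt-poor and 692 CPM in mt-rich cells of the first library, and at 44.0 and 546 CPM in those of the second. Of the regulators, Ppard had log2 ratios of -0.21 (-0.77 to 0.28) in the first library and -0.48 (-1.33 to 0.23) in the second. The other regulators were lower in mt-rich cells: Ppargc1a went from 874 to 275 CPM and from 1139 to 168 CPM, and Ppara from 379 to 72.1 CPM and from 467 to 80.9 CPM. Acacb, Cpt1a and Ucp3 also were at least 2-fold lower in mt-rich cells of both libraries. Other roles went both ways: of the carnitine shuttle genes in the first library 3 were lower and 1 higher, Cpt2 being at 56.5 and 170.2 CPM, and Etfdh and Eci2 were at log2 ratios of -0.27 and -0.20 there, against 0.07 and 0.78 in the second library. Oxct1 went from 373 to 1052 CPM in the first library but was at 1179.5 and 1167 CPM in the second (log2 ratio -0.01).

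**Figure D3:**
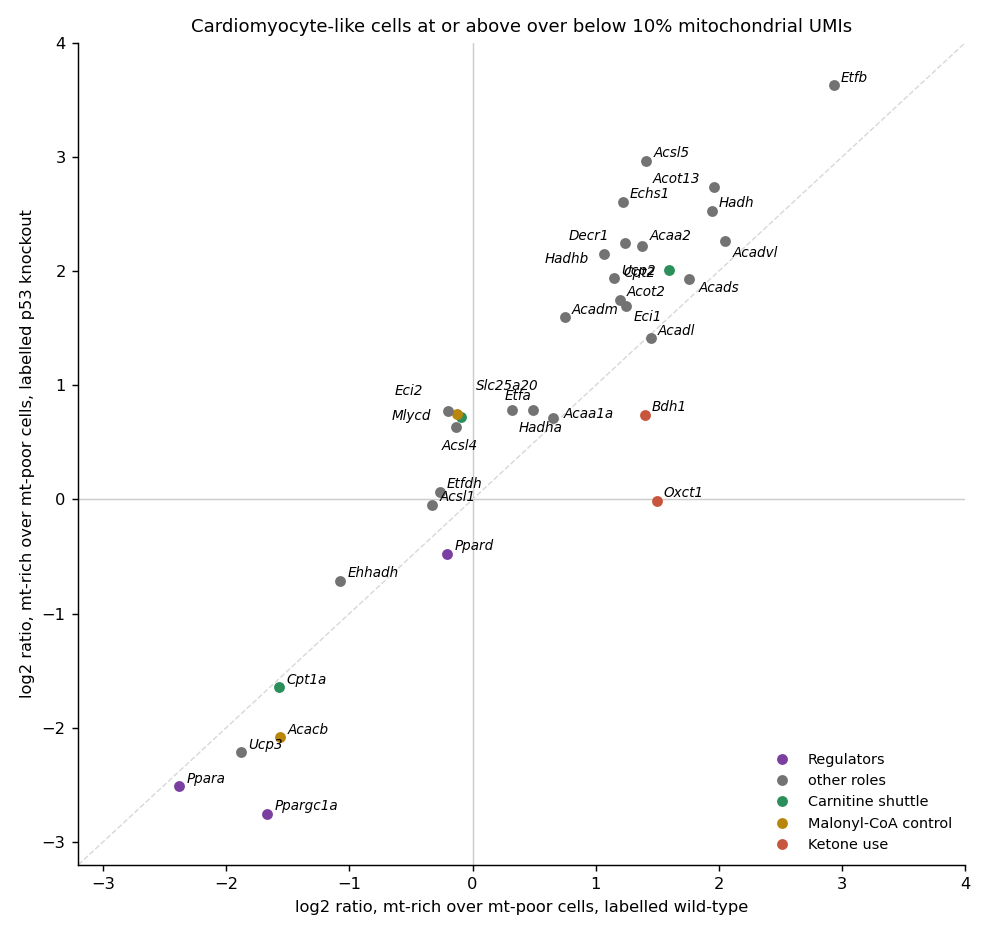
Log2 ratio of mt-rich over mt-poor cardiomyocyte-like cells for the 34 genes measured in both libraries, in the wild-type-labelled library (horizontal) and the knockout-labelled library (vertical); the dashed line marks equal ratios. Ppara, Ppargc1a, Acacb, Cpt1a and Ucp3 lie low in both, most enzymes of the spiral lie high in both, and Oxct1 stands off the line, at -0.01 in the knockout-labelled library.

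The values that move with this split are large. Malat1 took 7.10% and 8.67% of nuclear-encoded UMIs in mt-poor cells but 2.05% and 1.09% in mt-rich cells, and the atrial genes were found in 0.865% and 12.5% of mt-rich cells. Across all measured genes, the ratio of mt-rich over mt-poor cells was correlated with gene length by Spearman's rho of -0.29 in the first library and -0.46 in the second, and across the members by -0.33 and -0.52. These genes share 2 libraries and are not independent replicates. Ppargc1a and Acacb, lower in mt-rich cells, span 113 and 104 kb, and Etfb spans 13.7 kb, but Ucp3, also lower, spans 13.4 kb. Across mt-poor cells the ratio between the libraries had a rho of 0.07 with length over all genes and 0.18 over the members. Across mt-rich cells this rho was -0.31 over all genes and -0.11 over the members. There, measured genes of at least 100 kb had a median log2 ratio of -0.51 between the libraries, and those under 10 kb 0.15.

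Finer bins of mitochondrial UMIs showed where the libraries met. In cells under 2%, Oxct1 was at 381 and 1218 CPM, and in cells of 20% to 50% at 1165 and 1211 CPM. In the first library it thus was higher with each bin from 2% to 5% upward, while in the second it lay between 881 and 1218 CPM throughout. Acadm was at 558 and 222 CPM under 2% and at 1132 and 769 CPM above 20%. Ppargc1a in the second library was at 1371 CPM between 2% and 5% and at 124 CPM between 5% and 10%, where only 70 cells contribute. The summed share of the 38 genes was lower in the second library in all 5 bins, from 0.847% and 0.682% under 2% to 1.34% and 1.10% at 20% to 50%, with intervals that overlap between 10% and 20%.

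**Figure D4:**
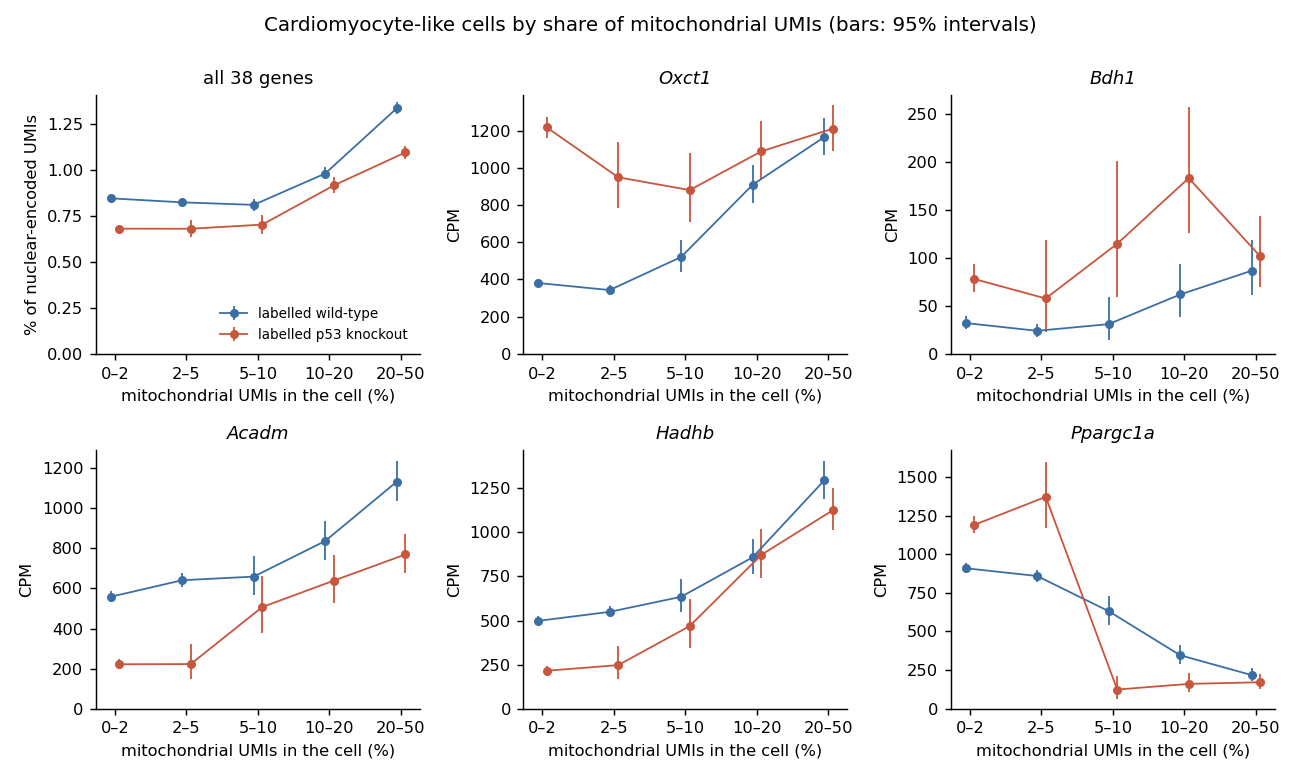
Summed share of the 38 genes and the levels of 5 of them in cardiomyocyte-like cells binned by the percentage of mitochondrial UMIs, for the wild-type-labelled (blue) and knockout-labelled (red) library, with 95% binomial or Poisson bars. Oxct1 differs between the libraries in cells under 10% and meets at 1165 and 1211 CPM in the last bin, and Ppargc1a is low in all mt-rich bins.

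The median difference was smaller in shallow cells, though Ucp3, Bdh1 and Ppargc1a, among others, had ratios further from 0 there. In mt-poor cells of 500 to 1500 UMIs (2954 and 310 cells), 11 of the 38 genes were at least 2-fold lower and 3 higher, beside 16.9% and 7.52% of all genes. The median log2 ratio was -0.40 there, beside -0.18 for all genes. Of the 12 genes named above as past 2-fold on the low side, 10 had the same direction there and 6 were past 2-fold. Acsl3 and Amacr were at 0.01 and 0.44 there, and Cpt1a, Cpt1b, Echs1 and Etfb stayed lower but within 2-fold. In deeper cells (1104 and 313) all 12 were past 2-fold, as part of 14 of 37 genes lower and 3 higher, beside 16.4% and 4.41% of all genes. The median was -0.89 there, beside -0.27 for all genes. These cells hold 1515809 of the 1774437 nuclear-encoded UMIs of the second library's mt-poor cells, so the 12 were chosen largely on them. Oxct1 was at 376 and 967 CPM in shallow cells and at 371 and 1216 CPM in deep ones. Ehhadh had 194 and 0 UMIs in the shallow cells, where 3 counts would be 11.6 CPM against 77.2 CPM, and 338 and 26 UMIs in the deep ones. Acaa2, Ucp3, Acadm, Hadhb and Eci1 were past 2-fold in both.

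The 2 libraries held most of their mt-poor cells in different clusters, and within single clusters the median ratio was closer to 0. The median log2 ratio of the measured members was -0.38 in cluster 1 (2481 and 121 cells), -0.39 in cluster 7 (1421 and 32 cells), -0.05 in cluster 9 (139 and 75 cells) and -0.27 in cluster 15 (17 and 395 cells), where the medians of all genes were -0.09, -0.02, -0.12 and -0.23. In cluster 1, 9 of 38 genes were at least 2-fold lower and 8 higher, beside 22% and 12.8% of all genes. In cluster 7 the counts were 10 and 7 of 37 beside 18.4% and 17.4%, in cluster 9 they were 2 and 1 of 21 beside 16.3% and 10.6%, and in cluster 15 they were 6 and 6 of 33 beside 27.3% and 12.6%. Oxct1 had a log2 ratio of 1.30, 2.01, 0.66 and 1.91 in clusters 1, 7, 9 and 15, each with an interval above 0, though the last rests on 9 UMIs in the first library. Ehhadh had 0 UMIs in clusters 1 and 7 of the second library, where 3 counts would be 34.9 and 46.8 CPM, against 78.1 and 114 CPM in the first. In clusters 9 and 15 it had 3 and 2 UMIs in the first library, too few to compare. Ucp3 by contrast was at -0.31 in cluster 1, where it had 455 and 15 UMIs, and at -1.31 in cluster 7. Ppargc1a was at 1.07 in cluster 1, -0.30 in cluster 7, -2.49 in cluster 9 (64 and 8 UMIs) and 1.12 in cluster 15. The intervals of these Ucp3 ratios were -1.21 to 0.38 and -2.88 to -0.30.

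Across cell classes, many but not all of the genes were highest in cardiomyocyte-like cells. In the wild-type-labelled library, 21 of the 38 genes were higher in a cardiomyocyte-like stratum than in every other class beyond the 95% intervals, 12 overlapped another class and 5 were higher elsewhere. In the knockout-labelled library the numbers were 18, 12 and 8. The higher of the 2 cardiomyocyte-like strata was used, and the share of all genes that would meet this rule was not counted. Acsl4 was highest in mesothelial-like cells, at 206 and 205 CPM, with macrophage-like cells next, at 147 and 155 CPM, and the intervals of the 2 classes overlapping. Acsl5 was at 76.3 CPM in endocardial-like cells of the first library and at 110.2 CPM in lymphatic endothelial-like cells of the second. Ppard was highest in pericyte-like cells, at 87.6 and 139 CPM, with intervals that overlap the next class in both libraries. Ucp2 in the second library was at 317 CPM in macrophage-like cells and at 294 CPM in cluster 13, which carries neutrophil markers but is led by macrophage genes as well and was left unnamed; the intervals overlap.

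Acsl1 reached 4717 CPM in 57 adipocyte-like cells of the knockout-labelled library, compared with 438 CPM in its mt-poor cardiomyocyte-like cells, and Acacb, Acadl and Acaa1a were at 868, 651 and 121 CPM in the same adipocyte-like cells. The wild-type-labelled library had 30 such cells, under the minimum of 50. Cpt1a was highest in smooth muscle-like cells of the first library, at 210.4 CPM (101 to 387), but the interval includes the 142 CPM of mt-poor cardiomyocyte-like cells. In the second library B-like and mesothelial-like cells led, at 123 and 113 CPM, above the 53.5 CPM of mt-poor cardiomyocyte-like cells.

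**Figure D5:**
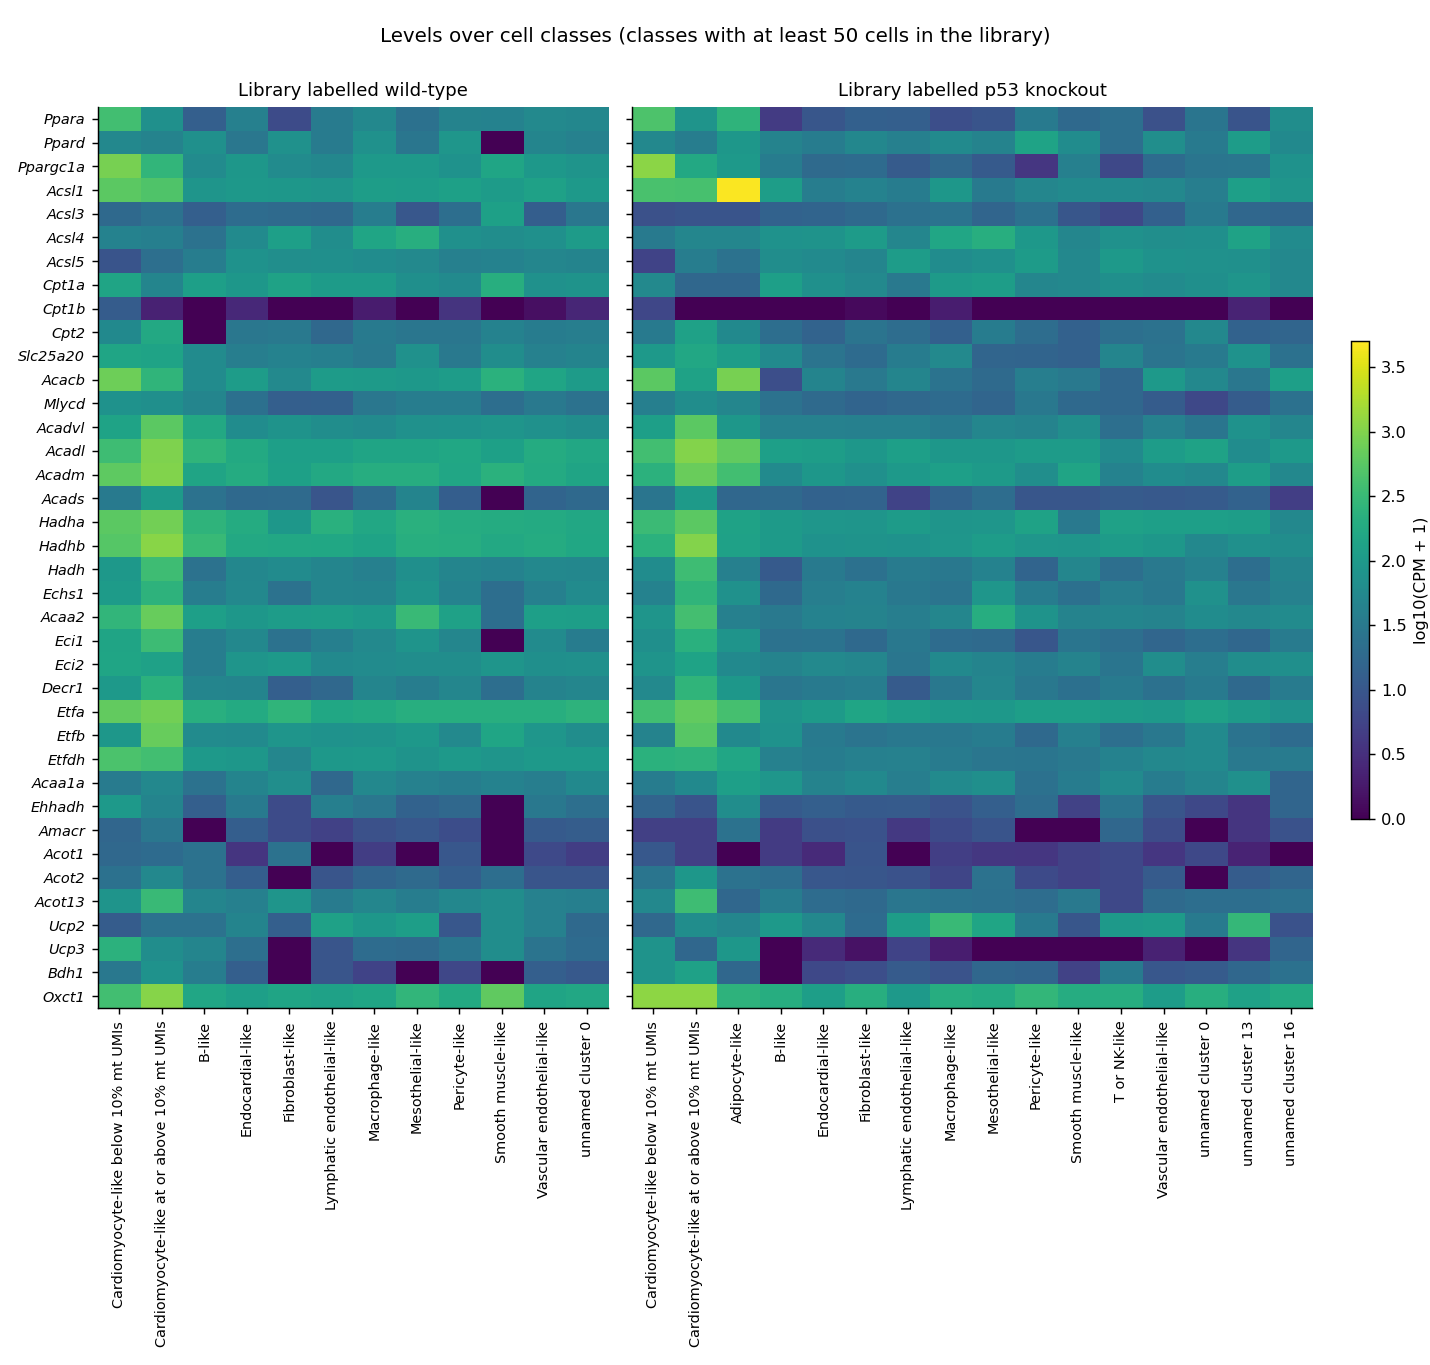
Level of each of the 38 genes, as log10(CPM + 1), in every class with at least 50 cells in the library. The cardiomyocyte-like columns at the left of each panel are brightest for most genes, Acsl1 is brightest in adipocyte-like cells at 4717 CPM, and Acsl4, Acsl5, Ppard and Ucp2 are brighter outside heart muscle.

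Outside cardiomyocyte-like cells the median log2 ratio of the measured members ranged from -0.97 in smooth muscle-like cells, with 6 genes measured, to -0.07 in B-like cells. Fibroblast-like, lymphatic endothelial-like and mesothelial-like cells were at -0.56, -0.60 and -0.71, beside -0.09, -0.02 and -0.10 for all genes. Endocardial-like, macrophage-like and pericyte-like cells were at -0.73, -0.70 and -0.73, beside -0.11, -0.04 and -0.06. Unnamed cluster 0 was at -0.58 beside -0.02. A median below that of all genes was thus not particular to cardiomyocyte-like cells. Of 16 genes measured in B-like cells, 9 were lower and 7 higher, where the median of all genes was 0.08. At least 2-fold lower were 7 of the 16, beside 12.8% of all genes, and at least 2-fold higher were 3, beside 15.7%. In vascular endothelial-like cells (2682 and 1930 cells), 13 of 37 measured genes were at least 2-fold lower and 1 higher, beside 12.3% and 6.34% of all genes; the median was -0.75, compared with -0.09 for all genes. In these cells 10 markers of cardiomyocytes summed to 0.944% and 0.198% of nuclear-encoded UMIs, and over the 9 other classes measured in both libraries, unnamed cluster 0 included, they ranged from 0.581% to 1.30% in the first library and from 0.170% to 0.309% in the second. Ucp3, a gene of muscle, was at 25.2 and 1.25 CPM in vascular endothelial-like cells. The part of such RNA in the ratios of these classes was not tested. In mt-poor cardiomyocyte-like cells the same markers, which also served to name these cells, summed to 5.74% and 5.96%. Single markers went both ways, with log2 ratios of 1.40 for Actn2, -0.42 for Tnnt2 and -0.24 for Ttn. In the same cells 9 fibroblast markers summed to 0.117% and 0.0744%, none at 0, with 9 vascular endothelial markers at 0.0968% and 0.0613%. Oxct1 was at 144 and 108 CPM in vascular endothelial-like cells. With cardiomyocyte markers at 0.944% and 0.198% there, these totals cannot show whether the cells' own Oxct1 differed.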

How the data were processed

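The deposited matrices hold whole-number counts of UMIs per gene and cell, not normalized, 1 matrix per library; per the submitters' processing notes Cell Ranger, Seurat and build mm10 were used, and no version is stated there. The cell barcodes have another form than the named kit's, so the chemistry is not taken from the labels. Every deposited barcode has at least 500 UMIs. Cells with at least 200 genes and at most 50% mitochondrial UMIs were kept. Scrublet's automatic threshold marked 0 cells, so the 8% with the highest scores in each library were removed. Both libraries were clustered together without integration (scanpy 1.11.5, leidenalg 0.10.2, 2000 variable genes, 30 components, 15 neighbours, resolution 1), leaving the 38 genes and the listed pathway genes out of the variable genes. A cluster was named X-like from at least 3 markers at 2-fold; these thresholds, and 5 macrophage genes that withhold another name where they lead a cluster, were set after the data were seen. The members, lists and markers were chosen with earlier results of these data known.

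UMIs were summed per class and library and scaled to CPM of nuclear-encoded UMIs. Intervals are 95%: exact Poisson for levels, Clopper-Pearson for shares and exact conditional binomial for ratios. Only the interval for ratios was tried on simulated data, with Poisson counts that hold no spread between cells or animals. All these intervals cover counting error only. With 1 library per group no test was run. Values are printed for every member with at least 100 UMIs over both libraries in cardiomyocyte-like cells, and for the rarer ones; in each other list the genes with the most UMIs and the extreme ratios among those with at least 100 UMIs are named, and any others were chosen after their values were seen. A gene that this rule selects is not reported here. Gene positions are from GENCODE release M21.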

Additional observations from a re-analysis of the deposited data

Results flagged for a closer look

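Ppargc1a, the gene of the coactivator PGC-1alpha, had opposite signs in the 2 kinds of cardiomyocyte-like cells. Knockout-labelled over wild-type-labelled, its log2 ratio was 0.38 in cells below 10% mitochondrial UMIs and -0.70 in cells at or above 10%. The intervals were 0.31 to 0.46 and -1.09 to -0.34, which cover counting error only. Ppargc1a spans 113 kb, and all measured genes of at least 100 kb had medians of -0.25 in mt-poor and -0.51 in mt-rich cells. Within mt-poor cells its log2 ratio was 1.07, -0.30, -2.49 and 1.12 in clusters 1, 7, 9 and 15. Cluster 9 also held 780 and 255 of the mt-rich cells. With 1 library per group the difference was not tested.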

How the results depend on the processing

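No paired analysis was possible because each group is 1 library. Over 18 settings in mt-poor cells, Acaa2, Ehhadh, Ucp3, Bdh1 and Oxct1 were past 2-fold in all 18, Acadm in 17, Hadhb, Cpt1a, Acsl3 and Amacr in 16, Echs1 in 14, Eci1 in 13, Cpt1b in 12 and Etfb in 11. The mt-poor median of -0.77 was -0.40 in cells of 500 to 1500 UMIs and -0.41 without the split, and the count of 12 genes lower was 7 without the split and 7 with equal weight per cell. Acsl3 and Amacr were at 0.0082 and 0.44 in mt-poor cells of 500 to 1500 UMIs, and Cpt1a and Acsl3 at 0.55 and 1.08 in such mt-rich cells. In mt-rich cells the 5 lower and 1 higher became 0 and 0 with at least 100 UMIs, 8 and 2 with a split at 5%, 3 and 0 with a split at 20%, and 2 and 2 at 500 to 1500 UMIs; 3 were lower with equal weight and 2 above 1500 UMIs, and 2 were higher with at least 500 genes or without cells with atrial genes. The knockout-labelled median of mt-rich over mt-poor, 0.78, was 0.35 scaled by all UMIs, 0.62 without the 50 most abundant genes and -0.36 with median-of-ratios scaling, so its direction depends on the scaling. The log2 ratio of the summed share in mt-poor cells, -0.29, was -0.21 with median-of-ratios scaling, -0.19 without the 50 most abundant genes, -0.25 with equal weight, -0.26 with a split at 20%, -0.33 with at least 500 genes, -0.25 at 500 to 1500 UMIs, -0.37 above that and -0.21 without the split. In mt-rich cells, where it was -0.19, it was -0.34 with median-of-ratios scaling, -0.12 with equal weight, -0.29 with a split at 20%, 0.012 at 500 to 1500 UMIs, -0.35 above that, -0.092 without cells with atrial genes and -0.24 without doublet removal. The vascular endothelial-like median of -0.75 was -0.55 above 1500 UMIs. The cause was not tested for any of these. At resolution 2, and without cluster 9, under 50 mt-rich cells were left in the knockout-labelled library, so there is no value. At resolution 2 a cluster of 207 and 263 cells, with a median of 26.7% mitochondrial UMIs, was named atrial cardiomyocyte-like instead. Counts under 20 UMIs per gene and the single library per group limit what can be compared.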
